A study of Rattus norvegicus with 3 samples.

Results

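A set of 9 genes of peripheral glia was followed across the cells of the injured rat spinal cord. They are Pmp22, Pmp2, Prx and Ncmap, which belong to the myelin sheath of peripheral nerve, and Egfl8, Cdh19, Ngfr, Erbb3 and Scn7a, which are carried by Schwann cells outside or beside the myelinating state. They were taken by symbol from the deposited feature tables, 9 of 25199 features, and all 9 were found. The study's title speaks of a hydrogel depot given to repair a severe cord lesion. Wild-type rats of 6 to 8 weeks received MPG-HD, G-HD or PBS at the lesion, with 5 animals per condition, and cells of a cord segment of 5 mm around the lesion went into 1 droplet library per condition (10x Genomics, 3′ ends). The labels do not spell out the abbreviations MPG-HD and G-HD, do not give the time after injury, and do not say how the animals were combined. PBS was taken as the control injection.

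Schwann cells wrap the axons of peripheral nerves and nerve roots, and a myelinating Schwann cell builds its sheath around a stretch of a single axon. When axons are cut, these cells take down their myelin, lower the myelin genes and enter a repair state in which receptors such as the neurotrophin receptor Ngfr come up, a programme driven in large part by the transcription factor JUN. Schwann cells are normally kept out of the spinal cord, but after injury they enter it from the roots and can myelinate central axons, where oligodendrocytes make the myelin otherwise.

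The upstream sequences of 3 genes are shown because Prx and Ncmap were found in the same few Schwann-like cells while Scn7a was nearly missing from them. Each is the 250 bases before the annotated gene start on the gene's own strand, from RefSeq on GRCr8. Of the 9 genes, 6 have an entry in that table (Pmp22, Prx, Ncmap, Egfl8, Cdh19 and Scn7a). Capitals mark matches on either strand to GTGGGNG, a motif of the type bound by EGR factors such as the myelin regulator EGR2, or to ACAANG, a motif of the type bound by SOX factors such as SOX10. The motifs do not overlap in these sequences. The intervals are chr1:91914171-91914420 on the plus strand for Prx, chr5:152902415-152902664 on the minus strand for Ncmap and chr3:71846285-71846534 on the minus strand for Scn7a.
Prx: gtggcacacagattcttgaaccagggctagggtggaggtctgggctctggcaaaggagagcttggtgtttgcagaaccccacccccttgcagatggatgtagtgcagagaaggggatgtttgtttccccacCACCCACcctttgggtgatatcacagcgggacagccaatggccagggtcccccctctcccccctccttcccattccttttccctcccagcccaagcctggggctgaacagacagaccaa
Ncmap: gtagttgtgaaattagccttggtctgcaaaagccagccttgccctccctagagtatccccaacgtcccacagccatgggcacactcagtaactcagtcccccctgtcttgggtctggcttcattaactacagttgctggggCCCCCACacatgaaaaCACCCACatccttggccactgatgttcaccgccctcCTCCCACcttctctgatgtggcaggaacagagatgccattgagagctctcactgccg
Scn7a: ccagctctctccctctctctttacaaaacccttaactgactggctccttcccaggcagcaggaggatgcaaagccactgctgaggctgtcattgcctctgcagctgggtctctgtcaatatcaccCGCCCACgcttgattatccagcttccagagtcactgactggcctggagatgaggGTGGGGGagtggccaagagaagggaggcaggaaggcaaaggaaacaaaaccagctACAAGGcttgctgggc

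Prx held 1 match to GTGGGNG, Ncmap 3 and Scn7a 2, while Pmp22, Egfl8 and Cdh19 held 0. Of all 33469 upstream sequences of this length in the table, 25.6% held that motif. ACAANG was found 1 time in Scn7a and 1 time in Egfl8, against 36.9% of all upstream sequences. Both motifs are common, and a match describes letters and not a bound site.

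The libraries held 2339 (MPG-HD), 2619 (G-HD) and 1513 (PBS) cell barcodes with 23988263, 26289759 and 16081082 unique molecular identifiers (UMIs, 1 per captured RNA molecule). After filtering, 2087, 2342 and 1374 cells remained, at medians of 10425, 9247.5 and 10294 UMIs. Between libraries, MPG-HD and G-HD shared 8 barcodes, MPG-HD and PBS 5, and G-HD and PBS 8. Clustering, with the 9 genes kept out of the variable genes, gave 25 clusters. One of them, with 507 cells, was named Schwann-like from markers other than the 9 genes. S100b, a glial calcium-binding protein, was found in 95.1% of its cells, the neural crest regulator Sox10 in 79.9% and the myelination factor Lgi4 in 77.1%. Other markers reached fewer cells, with Dhh in 35.1%, Gldn in 17.0%, Cldn19 in 7.30%, Gfra3 in 4.54% and Drp2 in 2.17%. The markers of the lineage were thus found in most cells, and the sheath markers Cldn19 and Drp2 in few. The cluster had 209 of the MPG-HD cells (10.0%, exact binomial 95% interval 8.76 to 11.4), 203 of the G-HD cells (8.67%, 7.56 to 9.88) and 95 of the PBS cells (6.91%, 5.63 to 8.39). Levels are given as counts per 1000000 (CPM), a gene's UMIs in all cells of a class divided by all UMIs of those cells. Each condition has 1 library, so no test could be run, and all intervals are exact 95% intervals of counting error only, without the spread between animals.

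All 9 genes had their highest level in Schwann-like cells among the 12 classes of 50 or more cells, which was so for 9.73% of the 14010 genes measured. They differed in how much they kept to that class. Prx, Ncmap, Egfl8 and Scn7a were nearly restricted to it, with between 90.9% and 96.6% of all their UMIs there. Pmp22, Pmp2, Ngfr, Cdh19 and Erbb3 had between 44.0% and 61.8% of theirs there, the rest lying mainly in fibroblast-like, macrophage-like or oligodendrocyte lineage cells.

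**Figure D1:**
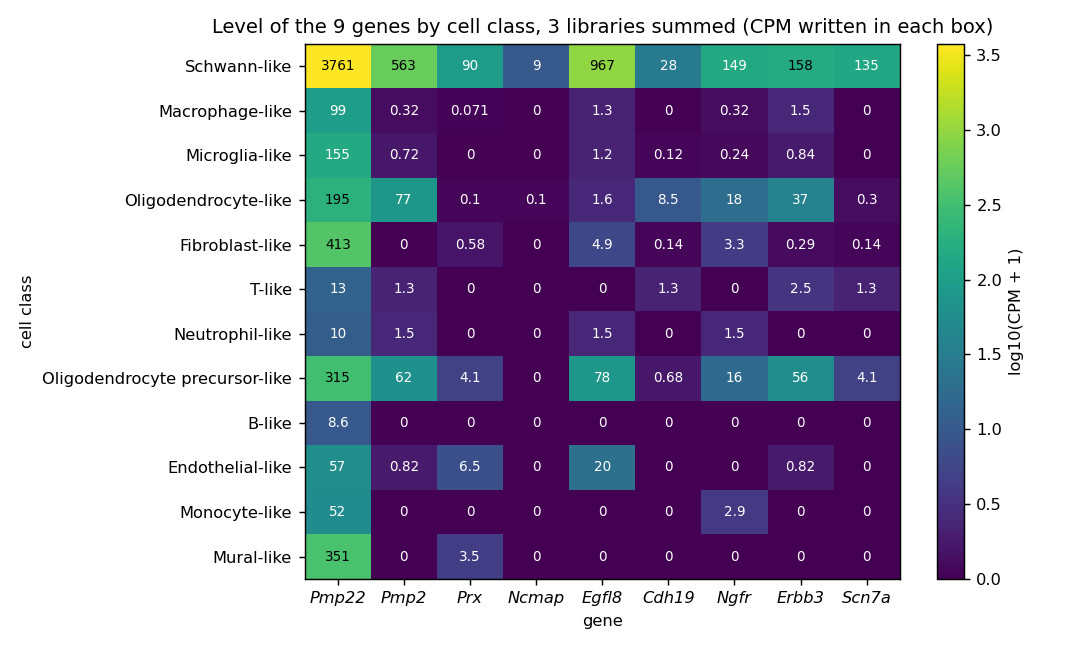
Level of each gene (columns) in each cell class (rows), as CPM written in the boxes and as a colour scale of log10(CPM + 1), with the 3 libraries summed. The Schwann-like row holds the highest value of every column, Pmp22 is above 0 in all rows, and Ncmap is at 9.0 CPM in the Schwann-like row and otherwise at 0 but for 1 UMI in oligodendrocyte-like cells.

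Among the sheath genes, Pmp22 (ENSRNOG00000003338), a membrane protein of compact myelin whose altered dosage causes inherited neuropathy in humans, was the broadest. It stood at 3761 CPM in Schwann-like cells and at 413 CPM in the next class, fibroblast-like cells, a ratio of 9.11 (8.74 to 9.50). It was also present in mural-like cells (351 CPM), oligodendrocyte precursor-like cells (315 CPM), oligodendrocyte-like cells (195 CPM), microglia-like cells (155 CPM) and macrophage-like cells (99.5 CPM). In the precursor-like cells, 304 of 464 Pmp22 UMIs sat in 32 of 166 cells, although 71.7% of the cells held 1 or more. Whether those 32 were doublets or mixed droplets was not tested. Pmp22 was thus found well outside the peripheral glia. In T-like cells it was at 12.6 CPM and in B-like cells at 8.57 CPM. After each cell was thinned to 3000 UMIs, 95.5% of 423 Schwann-like cells held a Pmp22 UMI, against 63.5% of fibroblast-like, 32.8% of microglia-like and 2.22% of T-like cells (3 cells, all from PBS). Egfl8 stood at 967 CPM in Schwann-like cells, against 4.89 CPM in fibroblast-like and 1.202 CPM in microglia-like cells. The part of RNA free in the droplets in the Pmp22 levels of other classes was not tested. Within the macrophage-like class, 1 cluster with C1qa, C1qb and C1qc among its leading genes held 171 CPM of Pmp22 and another, led by Apoc4, 32.2 CPM.

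Pmp2 (ENSRNOG00000022707), a fatty acid-binding protein of peripheral myelin, stood at 563 CPM in Schwann-like cells and 76.7 CPM in oligodendrocyte-like cells (ratio 7.34, 6.72 to 8.03), with 61.8 CPM in oligodendrocyte precursor-like cells. In the precursor-like cells 1 cell held 24 of the 91 Pmp2 UMIs. Prx (ENSRNOG00000018369), periaxin, which anchors the outer Schwann cell membrane to the dystroglycan complex, stood at 90.0 CPM, against 6.52 CPM (8 UMIs) in endothelial-like cells (ratio 13.8, 6.89 to 32.4). Ncmap (ENSRNOG00000048139), a membrane protein of non-compact myelin, had 23 UMIs in Schwann-like cells, which is 9.0 CPM (5.71 to 13.5). Of its other UMIs, 1 was counted in oligodendrocyte-like cells. The sheath genes therefore range from the widespread Pmp22 to the rare and confined Ncmap, which at this depth cannot be compared between single cells.

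Egfl8 (ENSRNOG00000000436), a protein with EGF-like domains, stood at 967 CPM in Schwann-like cells and 78.1 CPM in oligodendrocyte precursor-like cells (ratio 12.4, 10.3 to 15.1). In those precursor-like cells, 93 of its 115 UMIs sat in 11 of 166 cells. The level there was thus that of a few cells, and whether these were doublets or mixed droplets was not tested. Cdh19 (ENSRNOG00000029841), a cadherin of the Schwann cell lineage, was at 28.2 CPM, against 8.51 CPM in oligodendrocyte-like cells (ratio 3.31, 2.38 to 4.59). The receptors were shared with the oligodendrocyte lineage as well. Ngfr (ENSRNOG00000005392), the low-affinity neurotrophin receptor, stood at 149 CPM against 17.8 CPM in oligodendrocyte-like cells (ratio 8.38, 6.99 to 10.1). Erbb3 (ENSRNOG00000004964), the neuregulin receptor on which Schwann cell survival rests, stood at 158 CPM against 56.4 CPM in oligodendrocyte precursor-like cells (ratio 2.81, 2.22 to 3.61). Scn7a (ENSRNOG00000029342), a sodium channel relative that senses sodium and is known from non-myelinating Schwann cells, stood at 135 CPM against 4.07 CPM (6 UMIs) in oligodendrocyte precursor-like cells (ratio 33.2, 15.1 to 91.2). Of the 5 genes without a sheath role, Egfl8 and Scn7a marked the Schwann-like class most sharply.

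Thinned to 3000 UMIs, which 84 of the 507 Schwann-like cells did not reach, Egfl8 was found in 69.3% of cells, Erbb3 in 38.1%, Pmp2 in 32.4%, Ngfr in 28.4%, Scn7a in 27.0%, Cdh19 in 8.04%, Prx in 6.86% and Ncmap in 1.42%. Before thinning, Prx was found in 39 of 507 cells. In T-like cells thinned alike, Erbb3 was found in 1 of 135 cells and the other 7 of these genes in 0, which allows a share of up to 2.22% (3 counts of the total, not an exact bound). Ncmap at 1.42% (0.522 to 3.06) lay under that limit, which rests on 135 cells. In larger classes thinned alike the limit was lower. Ncmap was found in 0 of 1686 macrophage-like cells (up to 0.178%) and 0 of 645 oligodendrocyte-like cells (up to 0.465%).

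The Schwann-like cells were then divided further, again with the 9 genes left out. Of 5 sub-clusters, 1 stood apart with 34 cells, in which Mbp, Mag, Cldn19 and Drp2, 4 myelin genes outside the 9, summed to 9222 CPM, against 2022 CPM in all Schwann-like cells and 1640 CPM in the next sub-cluster. It is called high-myelin here. Its median depth was 8401 UMIs per cell, deeper than the 3866 to 6096 of the others. In the other sub-clusters the sum was mainly Mbp. The next one had 984 UMIs of Mbp, 16 of Mag and 0 of Cldn19 and Drp2. The 9 genes took no part in the division, but they vary together with genes that did, so the contrast is a description.

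The sheath genes gathered in those 34 cells. Prx stood at 777 CPM in high-myelin cells and 3.52 CPM in the other 473 Schwann-like cells, with 222 of its 230 UMIs in the high-myelin cells, a ratio of 220 (110 to 517). Ncmap had 22 of its 23 UMIs there (77.0 CPM, against 0.441 CPM). Pmp22 stood at 22339 CPM against 1421 CPM, a ratio of 15.7 (15.1 to 16.4). The 34 cells thus held 66.4% of the Pmp22 UMIs of the whole Schwann-like class, although 94.1% of the other cells had Pmp22 as well. Pmp2 stood at 2631 CPM in high-myelin cells against 303 CPM, a ratio of 8.69 (7.83 to 9.65), with 52.3% of its UMIs there. By role, Prx and Ncmap were all but absent outside these cells, and Pmp22 and Pmp2 were graded.

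The other 5 genes were not alike. Egfl8 was higher in high-myelin cells, at 1448 CPM against 907 CPM, a ratio of 1.60 (1.43 to 1.78). Erbb3 differed by less than its counting error, at 126 CPM against 163 CPM (ratio 0.775, 0.534 to 1.09). Ngfr was lower at 45.5 CPM against 163 CPM (ratio 0.280, 0.148 to 0.484), and 10 of its 13 UMIs in high-myelin cells came from 1 cell. Scn7a was nearly missing, at 7.0 CPM against 152 CPM, a ratio of 0.0462 (0.00557 to 0.168), with 2 UMIs in 1 high-myelin cell and 344 in the others. Cdh19 had 4 UMIs (14.0 CPM) against 68 (30.0 CPM), a ratio of 0.467 whose interval of 0.124 to 1.25 spans no difference. With a difference called from 1.5-fold on, given at least 10 UMIs in both sums together, 5 of the 9 genes were higher and 3 lower in high-myelin cells, against 15.5% and 36.4% of the 8847 genes measured. In every library Scn7a was at 0 to 12.4 CPM in high-myelin cells, with 0 UMIs in 8 MPG-HD cells, 2 in 21 G-HD cells and 0 in 5 PBS cells.

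**Figure D2:**
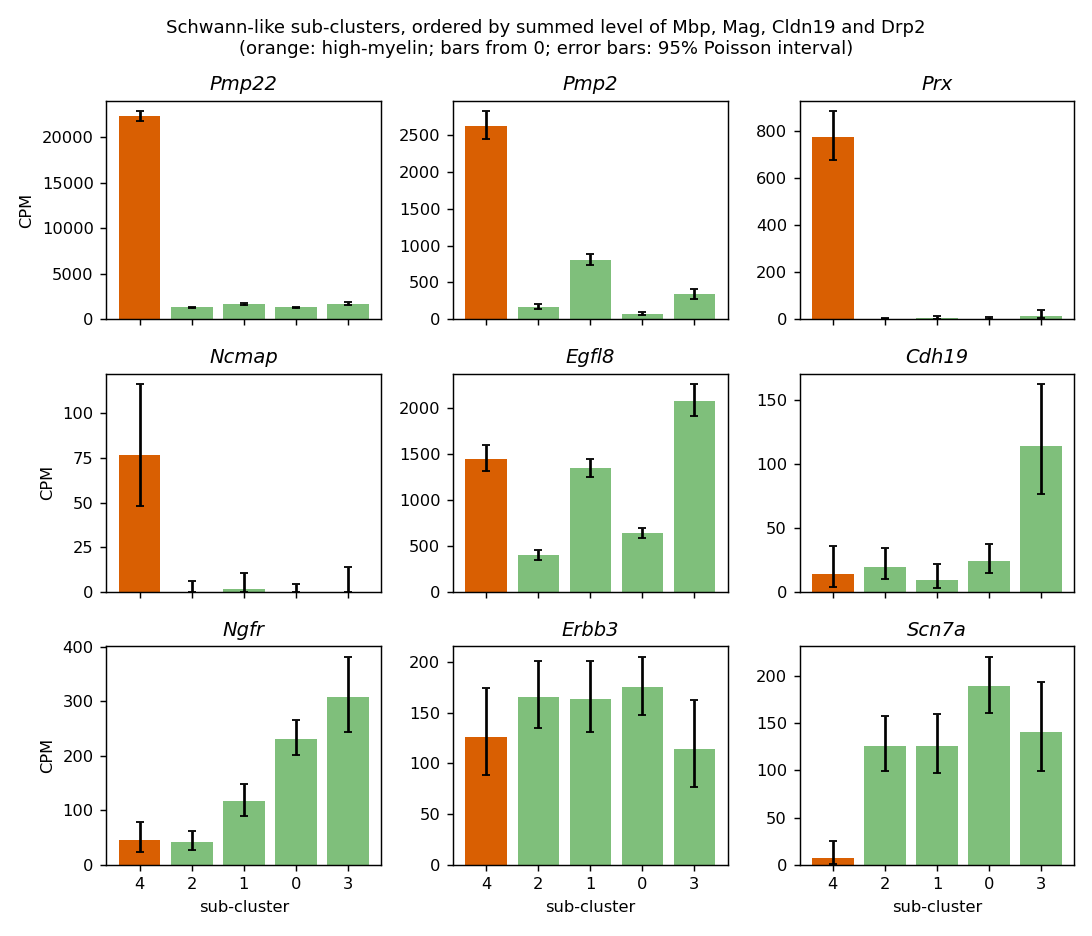
Level (CPM) of each gene in the 5 Schwann-like sub-clusters, ordered from left to right by the summed level of Mbp, Mag, Cldn19 and Drp2, with exact 95% Poisson intervals and the high-myelin sub-cluster (4) in orange. Outside sub-cluster 4 the order is that of Mbp, which makes up most of the sum. The place of sub-cluster 1 leans on 1 cell, which held 336 of its 641 Mbp UMIs. Prx and Ncmap are nearly confined to the orange bar, Scn7a has its lowest value there at 7.0 CPM, and Egfl8, Cdh19 and Ngfr are highest in sub-cluster 3.

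Per cell, the same separation could be read from co-detection in the 423 thinned cells. Prx was found in 29 cells and Scn7a in 114, and 0 cells held both, where 7.82 would be met if the genes were independent. Prx and Ngfr met in 3 cells (8.23 if independent), Prx and Ncmap in 6 (0.411), and Prx and Pmp2 in 20 (9.39). Outside the sheath genes, Ngfr and Erbb3 met in 54 cells (45.7) and Egfl8 and Scn7a in 88 (79.0), both near independence. Cdh19 and Scn7a met in 16 (9.16), further from it. Egfl8 was found in 26 of the 29 Prx cells (20.1). Ncmap and Scn7a met in 0 cells too (1.62 if independent), but Ncmap was found in 6 cells only. Pmp22 and Scn7a met in 112 cells (109) and Pmp2 and Scn7a in 35 (36.9). In these thinned cells Prx and Ncmap were thus not found with Scn7a, while the sheath genes Pmp22 and Pmp2, and Egfl8, were. At full depth some cells held both Prx and Scn7a. A high-myelin G-HD cell of 10477 UMIs had 1 and 2 UMIs of them, and MPG-HD cells of 11756 and 12108 UMIs had 1 of each. A PBS cell of 2199 UMIs, below the depth of thinning, had 1 of Prx and 2 of Scn7a.

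**Figure D3:**
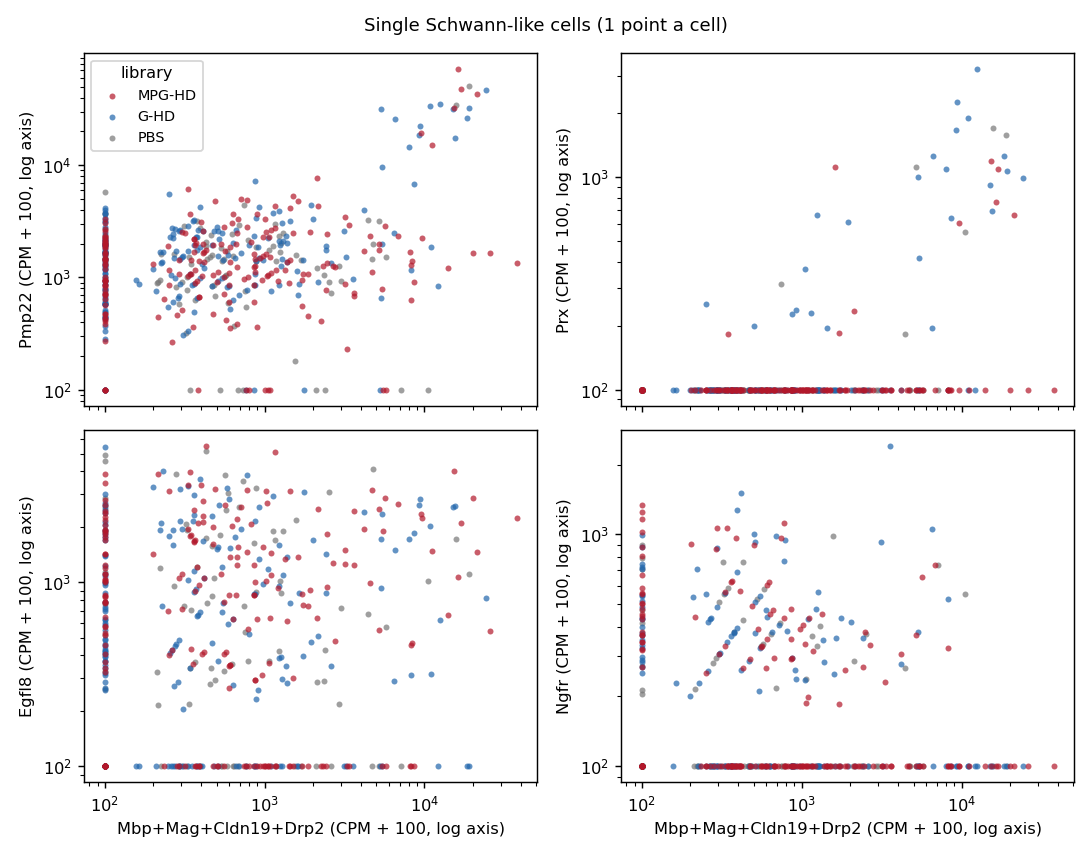
Each point is 1 Schwann-like cell, coloured by library, with the summed level of Mbp, Mag, Cldn19 and Drp2 on the horizontal axis and the level of Pmp22, Prx, Egfl8 or Ngfr on the vertical axis (CPM + 100, log axes). Pmp22 is found at low levels across the range and is high in many cells toward the right end, where most of the cells with high Prx lie too, and Ngfr is at 0 in most of the cells with the highest sums.

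Among the 4 sub-clusters without high myelin, 1 of 42 cells, with Sncg, Igfbp3, S100a4 and Sfrp1 among its leading genes, held the highest levels of Egfl8, Cdh19 and Ngfr. Egfl8 stood there at 2079 CPM against 753 CPM in the rest of these cells (ratio 2.76, 2.50 to 3.05). The sub-cluster was picked for this contrast by its Egfl8 level, so an Egfl8 ratio above 1 was fixed by the choice. Cdh19 stood at 114 CPM against 18.9 CPM (6.01, 3.59 to 9.96), and Ngfr at 307 CPM against 144 CPM (2.14, 1.65 to 2.75). These 3 genes shared a sub-cluster, but Scn7a did not follow them (140 CPM against 153 CPM, ratio 0.917, 0.634 to 1.29), and Erbb3 was lower (114 CPM against 169 CPM, ratio 0.673, 0.447 to 0.979). Col1a1, a collagen of fibroblasts, was among its leading genes too, and the part of that in these values was not tested. By library, Egfl8 in this sub-cluster was at 1782 CPM in 20 MPG-HD cells, 2168 CPM in 18 G-HD cells and 3411 CPM in 4 PBS cells. Cdh19 was at 61.2, 162 and 184 CPM in the same libraries, on 8, 18 and 4 UMIs. Another sub-cluster of 133 cells, with S100a9, S100a8, Cck and Postn among its leading genes, carried Pmp2 at 808 CPM, against 74.2, 169 and 338 CPM in the other 3 sub-clusters without high myelin. Pmp2 thus had a second high level outside the high-myelin cells. Prx, on far fewer UMIs, was at 15.2 CPM (4 UMIs) in the sub-cluster of 42 cells against 1.99 CPM (4 UMIs) in the rest of the cells without high myelin (ratio 7.61, 1.42 to 40.8). Scn7a was spread over these 4 sub-clusters at 126 to 189 CPM and Erbb3 at 114 to 175 CPM.

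Other genes of these states were counted from lists, whose members took part in the clustering, so these counts describe the sub-cluster. Of 18 further genes of the myelin programme, 15 were higher in high-myelin cells by the same rule and 1 (Arhgef10) was lower, where 15.5% of all genes were higher and 36.4% lower, with a median log2 ratio of 3.03, where the median of all 8847 genes was -0.24. Mbp stood at 7358 CPM against 1079 CPM, while Cnp (ratio 1.198), which central and peripheral myelin share, missed the fold. Of 18 genes of the repair programme, 12 were measured, of which 8 were lower in high-myelin cells and 2 (the chemokine Ccl2 and the transcription factor Sox2) higher, with a median of -2.06. The growth-associated Gap43 had 0 UMIs in the high-myelin cells against 507 CPM in the others, which places it at 0.0207 of that level or lower by a floor of 3 UMIs over the group. The filament gene Gfap stood at a ratio of 0.0160 (0.000404 to 0.0894), while Vim (0.673) and Jun (0.733) missed the fold. Of 14 genes of immature or non-myelinating cells, 12 were measured, with 4 higher and 6 lower and a median of -0.43. The matrix protein Tnc was at 3.50 CPM against 163 CPM, Apoe at 2162 CPM against 8224 CPM and Sox10 at 276 CPM against 442 CPM, while S100b was at 2292 CPM against 2093 CPM. Around Erbb3, 2 of 9 neuregulin pathway genes were measured and both were higher, among them its partner Erbb2 at 38.5 CPM against 18.1 CPM, on a ratio whose interval of 0.988 to 4.22 reaches 1. Around Ngfr, 8 of 14 neurotrophin genes were measured, with 1 higher (Ntrk3) and 4 lower, such as the BDNF receptor Ntrk2 at 7.0 CPM against 104 CPM and a median of -0.78, while Bex3 and Maged1 stood at ratios of 0.936 and 0.867. Markers of other cells of nerve and roots numbered 16, of which 11 were measured, with 3 higher (among them Col1a1 at 616 CPM against 249 CPM) and 7 lower. Against the 36.4% of all genes that were lower, the counts of 6 of 12, 4 of 8 and 7 of 11 in the last lists rest on few genes. In the same contrast the 6 fibroblast markers summed to 1553 CPM against 574 CPM, with 2 of them at 0 in high-myelin cells, and 6 neuron markers to 185 CPM against 97.8 CPM, with 4 at 0. Their part in these values was not tested.

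Between the libraries, the 9 genes in Schwann-like cells differed less than between the sub-clusters. Prx stood at 53.8 CPM in MPG-HD (55 UMIs in 9 cells), 130 CPM in G-HD (134 UMIs in 24 cells) and 81.6 CPM in PBS (41 UMIs in 6 cells). Prx was thus highest in G-HD and lowest in MPG-HD. Pmp22 stood at 3987 CPM in MPG-HD, 3737 CPM in G-HD and 3352 CPM in PBS, and Pmp2 at 543, 628 and 472 CPM in the same order. Ncmap had 8 UMIs in MPG-HD, 14 in G-HD and 1 in PBS (7.83, 13.6 and 1.99 CPM). All 4 sheath genes were above PBS in G-HD, except that Pmp22 was at 0.931 of PBS under a stricter cell filter, and Prx alone of them was below PBS in MPG-HD. Egfl8 stood at 1072 CPM in MPG-HD, 916 CPM in G-HD and 860 CPM in PBS, Cdh19 at 19.6, 36.9 and 27.9 CPM, and Ngfr at 150, 169 and 109 CPM. Erbb3 was nearly level at 158, 163 and 149 CPM, and Scn7a stood at 131, 150 and 113 CPM. Neutrophil markers moved with the libraries in these cells: 8 of them summed to 3.91 CPM in MPG-HD, 300 CPM in G-HD and 11.9 CPM in PBS, with 5, 2 and 4 of the 8 at 0, against 376948 CPM in neutrophil-like cells. Other marker sets were highest in G-HD as well. The 6 fibroblast markers summed to 655 CPM in MPG-HD, 820 CPM in G-HD and 462 CPM in PBS, with 0, 0 and 1 at 0, against 21134 CPM in fibroblast-like cells. The 8 macrophage markers summed to 973, 1305 and 872 CPM, with 3, 4 and 3 at 0, against 29581 CPM in macrophage-like cells, and the 6 neuron markers to 70.4, 163 and 69.7 CPM, with 3 at 0 in each. The part of these markers in the values was not tested.

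**Figure D4:**
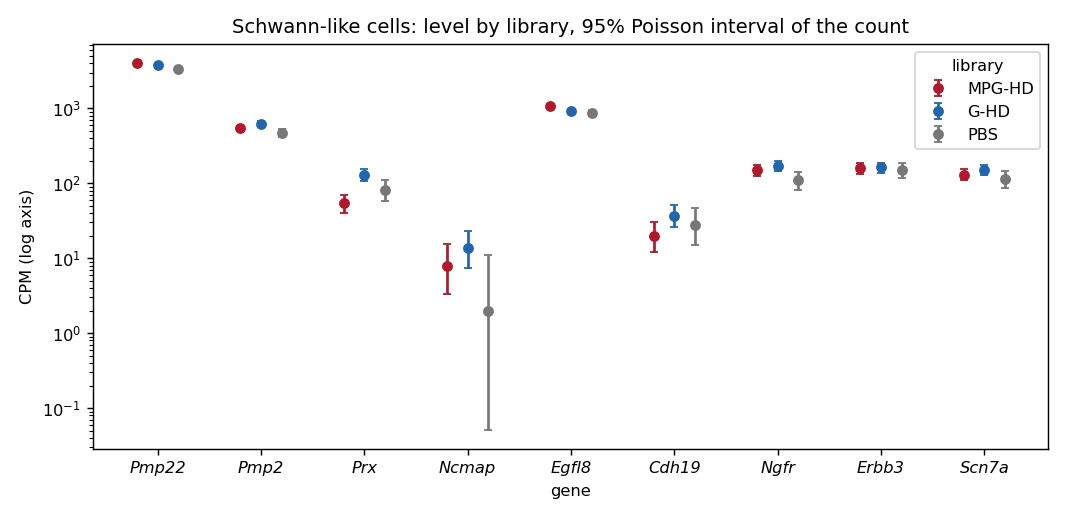
Level (CPM, log axis) of each gene in the Schwann-like cells of each library, with exact 95% Poisson intervals. Prx, Ncmap and Cdh19 are highest in G-HD, Erbb3 is nearly level at 149 to 163 CPM, and the interval of Ncmap in PBS spans more than a log unit because it rests on 1 UMI.

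For MPG-HD over PBS, 8 of the 9 genes had enough UMIs, 0 were higher by 1.5-fold and 1 was lower, where 11.9% of 7850 genes were higher and 13.8% lower (25.7% in either direction). The lower one was Prx, at a ratio of 0.659 whose interval of 0.432 to 1.01 reaches no difference. The median log2 ratio of the 8 was 0.21, beside -0.02 for all genes. Pmp22 (1.19, 1.12 to 1.26) and Egfl8 (1.25, 1.11 to 1.40) were the 2 whose intervals lay away from 1, both under the fold. For G-HD over PBS, 3 of 9 were higher (Prx, Ncmap and Ngfr) and 0 lower, where 14.9% of 7952 genes were higher and 11.9% lower (26.8% in either direction). Prx stood at 1.59 (1.11 to 2.32), Ngfr at 1.54 (1.13 to 2.13) and Ncmap at 6.82 (1.04 to 288). A count of 3 of 9 is not far from that background, and the median of the 9 was 0.41 beside 0.01 for all genes. Prx was at 1.25 when cells needed 500 genes and at most 10% mitochondrial UMIs, and Ngfr at 1.40 when cells were thinned to equal depth, both under the fold. For MPG-HD over G-HD, 0 were higher and 3 lower, where 8.43% of 8457 genes were higher and 13.1% lower (21.6% in either direction). Prx stood at 0.414 (0.297 to 0.571), Cdh19 at 0.531 (0.293 to 0.935) and Ncmap at 0.576 (0.209 to 1.47), and the median of the 9 was -0.20 beside -0.04 for all genes. These 3 comparisons share libraries, so a high or low G-HD value enters more than 1 of them.

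A few cells carried much of the sheath signal. In MPG-HD 1 cell held 1179 of 4075 Pmp22 UMIs (28.9%), in G-HD 1 cell held 348 of 3852 (9.03%), and in PBS 1 cell held 646 of 1684 (38.4%). For Prx the top cell held 13 of 55 UMIs in MPG-HD, 19 of 134 in G-HD and 19 of 41 in PBS, and for Pmp2 79 of 555, 126 of 647 and 90 of 237. Without the top cell of each library, G-HD over PBS was 1.62 for Pmp22, 1.7 for Pmp2 and 2.5 for Prx, and MPG-HD over PBS was 1.36, 1.57 and 0.925. The direction of Pmp22 was not stable: MPG-HD over G-HD was 1.07, but 0.838 without the top cells and 0.798 with every cell weighted alike. Egfl8, Ngfr, Erbb3 and Scn7a were spread over many cells, with no cell holding over 7.46% of a library's UMIs.

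The high-myelin cells were 8 of 209 Schwann-like cells in MPG-HD (3.83%, 1.67 to 7.40), 21 of 203 in G-HD (10.3%, 6.52 to 15.4) and 5 of 95 in PBS (5.26%, 1.73 to 11.9). The share was highest in G-HD, and the 3 intervals overlap. The shares depended on how the cells were filtered and clustered. In 4 alternatives that moved them, MPG-HD held 13% to 15.5%, G-HD 17.7% to 19.7% and PBS 8.08% to 12.2%, so that MPG-HD lay above PBS in each of these and below it in the shares given first. Myelin genes such as Mbp took part in forming this sub-cluster. Within it, Prx differed by less than its counting error, at 678 CPM in MPG-HD (508 to 887), 809 CPM in G-HD (676 to 960) and 833 CPM in PBS (592 to 1138). Pmp22 in these cells was at 34772, 15990 and 23377 CPM, Pmp2 at 2455, 2463 and 3501 CPM, and Egfl8 at 1816, 1412 and 961 CPM. Pmp22 and Egfl8 thus had different orders of libraries there, on 8, 21 and 5 cells.

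Left without the high-myelin cells, an alternative chosen after seeing the data, the picture of Pmp2 was another. It stood at 385 CPM in 201 MPG-HD cells, 288 CPM in 182 G-HD cells and 160 CPM in 90 PBS cells. MPG-HD over PBS was 2.40 (1.86 to 3.13), G-HD over PBS 1.80 (1.38 to 2.37) and MPG-HD over G-HD 1.33 (1.13 to 1.57). MPG-HD and G-HD were thus both above PBS in Pmp2 in these cells. Without thinning, the share of cells with Pmp2 was 34.3% in MPG-HD, 40.7% in G-HD and 26.7% in PBS, with overlapping intervals. MPG-HD was thus above G-HD in level and not in share of cells. In MPG-HD the cells richest in Pmp2 held 46, 35, 33 and 26 of 363 UMIs. The richest cell held 18 of 251 in G-HD and 16 of 73 in PBS. The sub-cluster with S100a9 and Cck held 277 of 363 of these UMIs in MPG-HD, 121 of 251 in G-HD and 33 of 73 in PBS, and Pmp2 was at 1033, 741 and 324 CPM there. In the largest sub-cluster, of 184 cells, it was at 47.4 CPM in MPG-HD, 117 CPM in G-HD and 15.2 CPM (2 UMIs) in PBS, and in the one with Sncg and Igfbp3 at 260, 468 and 138 CPM (3 UMIs in PBS). MPG-HD was thus above G-HD in the first of these sub-clusters and below it in the other two. S100a8, a neutrophil marker among the leading genes there, was at 0 CPM in MPG-HD, 104 CPM in G-HD and 1.99 CPM in PBS over all Schwann-like cells, and its part in the Pmp2 values was not tested. In the sub-cluster with Calca, Mgp and Vxn among its leading genes, Pmp2 was at 174, 158 and 174 CPM. Ngfr stood at 162, 187 and 116 CPM in the cells without high myelin (G-HD over PBS 1.61, 1.17 to 2.24), Cdh19 at 21.2, 41.4 and 26.3 CPM, and Pmp22 at 1437, 1472 and 1293 CPM. Prx was left with 2, 4 and 2 UMIs.

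The lists were also counted between the libraries in Schwann-like cells, where 25.7% of all genes were called in either direction in MPG-HD over PBS, 26.8% in G-HD over PBS and 21.6% in MPG-HD over G-HD. Of the 18 genes of the myelin programme, 1 was higher (Gldn) and 1 lower (Drp2) in MPG-HD over PBS, 4 were higher (Cldn19, Egr2, Sh3tc2 and Ndrg1) and 1 lower (Drp2) in G-HD over PBS, and 2 were higher (Mbp and Gldn) and 4 lower (Cldn19, Egr2, Arhgef10 and Sh3tc2) in MPG-HD over G-HD. Their medians were 0.18, 0.30 and -0.23. In MPG-HD, 1 cell held 39 of 182 Gldn UMIs, and 1 cell of the sub-cluster with S100a9 and Cck held 336 Mbp UMIs. Whether Mbp and Gldn keep their calls without such cells was not tested. Of the 12 measured genes of the repair programme, 2 were higher and 0 lower in MPG-HD over PBS, 3 were higher and 1 lower in G-HD over PBS, and 1 was higher and 1 lower in MPG-HD over G-HD, with medians of 0.07, -0.02 and -0.14. Jun was at 1396 CPM in MPG-HD, 1533 CPM in G-HD and 1103 CPM in PBS, and Gfap at 161, 214 and 223 CPM. Of the 12 measured genes of immature or non-myelinating cells, 4 were higher and 1 lower in MPG-HD over PBS, 4 were higher and 0 lower in G-HD over PBS, and 0 were higher and 1 (Tnc) lower in MPG-HD over G-HD. Tnc was at 107 CPM in MPG-HD, 211 CPM in G-HD and 91.6 CPM in PBS. Of the neurotrophin genes, Sort1 and Sorcs2, partners of NGFR, were higher in both MPG-HD and G-HD over PBS, Ntrk3 was higher in G-HD over PBS, and Maged1 was lower in MPG-HD over each of the others. Erbb2 was higher in MPG-HD than in G-HD, at 26.4 CPM against 14.6 CPM, with 19.9 CPM in PBS. Of the markers of other cells, Slc2a1 was higher in both over PBS, Mog and Opalin were higher in MPG-HD, and Cd68 and S100a8 were higher in G-HD.

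In oligodendrocyte-like cells, of the lineage which makes central myelin, 5 of the 9 genes had 84 UMIs or more and split between 2 clusters. Egfl8 followed with 16 UMIs over both. In the cluster with Opalin, Mag and Mbp among its leading genes (312 cells), Pmp2 stood at 142 CPM, against 18.4 CPM in the cluster led by Klk6 and Hapln2 (337 cells). Erbb3 stood at 64.5 CPM against 13.4 CPM in the same clusters. Pmp22 was the other way round, at 58.7 CPM against 316 CPM, and so was Cdh19, at 2.37 CPM against 14.0 CPM. Ngfr stood at 12.05 CPM against 23.0 CPM. Pmp2 and Erbb3 thus went with one of the oligodendrocyte clusters and Pmp22 and Cdh19 with the other. Over both clusters, Erbb3 was at 35.4 CPM in MPG-HD, 29.7 CPM in G-HD and 47.1 CPM in PBS (MPG-HD over PBS 0.752, 0.597 to 0.95, and G-HD over PBS 0.630, 0.455 to 0.864). It was lower than in PBS in both MPG-HD and G-HD in each cluster, at 58.6, 54.7 and 86.2 CPM in the first and 12.7, 5.89 and 19.3 CPM in the second. Cdh19 was at 6.03 CPM in MPG-HD, 10.1 CPM in G-HD and 12.04 CPM in PBS (MPG-HD over PBS 0.501, 0.297 to 0.843). Pmp2 was at 79.0, 90.0 and 62.8 CPM (G-HD over PBS 1.43, 1.16 to 1.78), in the opposite direction to Erbb3. Ngfr was at 16.0, 25.7 and 15.7 CPM, with 11.01 CPM in MPG-HD, 25.8 CPM in G-HD and 2.64 CPM (3 UMIs) in PBS in the first cluster and 20.8, 25.5 and 25.0 CPM in the second. Ngfr was thus low in PBS in the first cluster and not in the second. Pmp22 was at 192, 200 and 197 CPM over both, at 59.0 CPM in MPG-HD, 78.4 CPM (61.8 to 98.1) in G-HD and 41.3 CPM (30.4 to 55.0) in PBS in the first cluster, and at 321, 315 and 308 CPM in the second. Its level over both clusters thus hides a higher level in G-HD than in PBS in the first, where their counting intervals do not overlap. Without thinning, the shares of cells with Pmp22 in that cluster lay close together. They were 38.0% (26.8 to 50.3) in G-HD and 33.8% (23.0 to 46.0) in PBS.

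**Figure D5:**
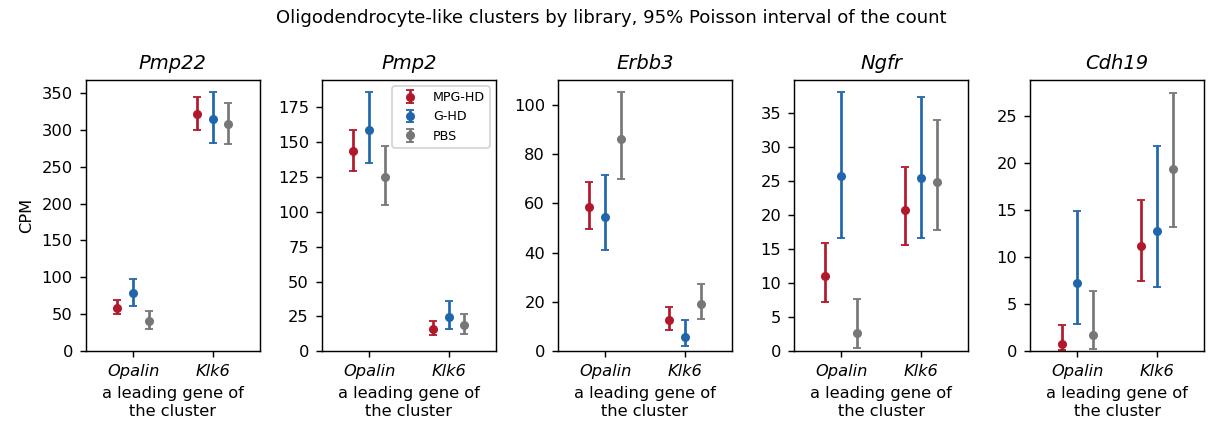
Level (CPM) of 5 genes in the 2 oligodendrocyte-like clusters, named by a leading gene, in each library, with exact 95% Poisson intervals. Pmp2 and Erbb3 are higher in the Opalin cluster and Pmp22 and Cdh19 in the Klk6 cluster in all 3 libraries, and Erbb3 is highest in PBS in both clusters.

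The genes whose levels ran most like those of the 9 over the 25 clusters of all cells were mostly other Schwann cell genes. These are Pearson correlations of log2(CPM + 10) over clusters, which share libraries and in which the Schwann-like cluster weighs heavily, so they are given as a description. Prx was closest to Scn7a (0.968), Gldn (0.966) and Cldn19 (0.955), and Ncmap to Cldn19 (0.995), although Prx and Scn7a met in 0 of the 423 thinned cells. Egfl8 was closest to Col20a1 (0.969), Cdh19 to Rxrg (0.959), Ngfr to Lgi4 (0.924) and Scn7a to Gldn (0.995). The closest genes of the remaining 3 were Epcam for Erbb3 (0.980), Tafa5 for Pmp2 (0.956) and Wdsub1 for Pmp22 (0.870).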

How the data were processed

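The authors deposited, per the file headers, raw counts of UMIs per gene and barcode, with no normalization and no cell annotation. Cell Ranger appears as 3.0.2 in the submitters' processing notes, with mouse builds, and as 3.1.0 in the matrix header, while the features are rat Ensembl identifiers. The sources used here do not give a rat build. The 9 genes, the gene lists and the markers were chosen with earlier results of these data known.

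The filter kept 5815 cells, those showing 200 genes or more with mitochondrial UMIs at 20% or less. Scrublet, through Scanpy 1.11.5, called 12 as doublets (0.206%, against 6% expected), so it was taken as not having worked, and these were removed all the same. Each cell was scaled to a total of 10000 and logged. From 2000 variable genes, without the 9, came 30 principal components, a graph of 20 neighbours (scikit-learn 1.9.0) and Leiden clusters at resolution 0.8 (leidenalg 0.10.2). Clusters were named from 20 marker sets where at least 3 markers reached 20% of cells, and unnamed clusters were left out of the classes. Schwann-like cells were divided again at resolution 0.6, a value not planned. A sub-cluster counted as high-myelin where a sum of myelin genes outside the 9 lay above the level of all Schwann-like cells. Part of that sum is left out of the text, and Mbp, Mag, Cldn19 and Drp2 alone, a sum chosen after seeing the data, picked the same sub-cluster.

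Levels are summed UMIs per 1000000 with exact Poisson intervals, shares have exact (Clopper-Pearson) binomial intervals and ratios exact conditional intervals (SciPy 1.17.1), all at 95%. UMIs and not reads were counted, and the intervals cover counting error only. Genes were called from 1.5-fold on if the sums held 10 UMIs or more between them. Shares of cells come from cells thinned to 3000 UMIs. Named genes were the 9, the 4 measured genes with the most UMIs in Schwann-like cells from each of 6 lists, members called from these lists, and the nearest genes by correlation over clusters among those with 100 or more UMIs; Ccl2, Sox2 and the other list members given only by name were named after their values were seen. The interval and call steps were tested on simulated data. Alternatives were another cell filter or none, resolutions 0.4 and 1.2, 1000 variable genes, the 9 genes among the variable genes, equal cell weights, leaving out the top cell and thinning.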

Additional observations from a re-analysis of the deposited data

Results flagged for a closer look

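Pmp22 went in opposite directions in different classes under the same contrast, each with a counting interval away from 1, and the differences between the classes were not tested. For G-HD over PBS it stood at 0.86 in macrophage-like cells (0.783 to 0.944) and 1.11 in Schwann-like cells (1.05 to 1.18). For MPG-HD over PBS it stood at 0.818 in macrophage-like cells (0.739 to 0.906), against 1.35 in microglia-like cells (1.18 to 1.54), 1.16 in fibroblast-like cells (1.06 to 1.28) and 1.19 in Schwann-like cells (1.12 to 1.26). All of these, counted over all cells kept, lay under 1.5-fold. The Schwann-like ratio of G-HD over PBS was not stable, with 1 PBS cell holding 646 of 1684 UMIs. As given above, it lay below 1 under a stricter cell filter and above 1.5 without the top cell of each library. In T-like cells Pmp22 had 0 UMIs in MPG-HD and in G-HD and 10 in PBS, ratios of 0 with upper bounds of 0.47 for MPG-HD and 0.235 for G-HD, and those 10 UMIs came from 3 cells.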

How the results depend on the processing

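No paired analysis was possible because each condition has 1 library and the labels give no replicate numbers. In all 9 alternatives run for it, the 9 genes kept their highest level in Schwann-like cells. The share of high-myelin cells among Schwann-like cells depended on whether the sub-cluster was drawn narrowly. With no cell filter it was 15.1% in MPG-HD and 19.6% in G-HD, with 500 genes and at most 10% mitochondrial UMIs 15.5% in MPG-HD, 18.8% in G-HD and 12.2% in PBS, and at resolution 0.4 it was 13% in MPG-HD and 17.7% in G-HD. At a sub-clustering resolution of 0.4, chosen after seeing the data, it was 13.9% in MPG-HD and 19.7% in G-HD, since the sub-cluster then took in the one with Sncg and Igfbp3. G-HD had the highest share in every alternative run. For MPG-HD over PBS, 0 of the 9 genes were called at resolution 0.4 and 0 with 1000 variable genes, 2 with equal cell weights and 2 after thinning. For G-HD over PBS, 5 were called without the top cell of each library and 1 after thinning, and for MPG-HD over G-HD 1 was called without the high-myelin cells, also chosen after seeing the data. Except where shown, the causes were not tested. Of the ratios of single genes, 227 stayed within their counting interval and 29 moved past it. Of the counts of genes and the shares of cells, 50 stayed within 1.5 times or their interval and 16 moved past it. Ncmap, with 23 UMIs, and Cdh19, with 72, are limited by depth.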
